A study of Mus musculus with 4 samples.

Results

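The seed family of miR-15 and miR-16 was followed in whole blood of 180-day-old Balb/c mice, an inbred laboratory strain. Its 7 loci were taken by name from 374 annotated microRNA (miRNA) loci: mmu-mir-15a, mmu-mir-15b, mmu-mir-16-1, mmu-mir-16-2, mmu-mir-195a, mmu-mir-322 and mmu-mir-497. They encode 6 mature miRNAs, because both miR-16 loci give the same one. Small RNA was sequenced in 2 control libraries and in 2 libraries from mice that drank water containing cadmium, a toxic metal. All mice had free access to feed and water, and blood was taken when they were killed at the end of the experiment. The sources used here give no cadmium dose, length of exposure or sex. Nothing in the labels ties a library to 1 mouse, so the p-values rest on the spread between these 4 libraries, and that spread may be technical.

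A miRNA binds messenger RNAs mainly through its seed, bases 2 to 8 from the 5′ end, and lowers their translation and stability. Members of the miR-15 and miR-16 family share a seed and are known for restraining the cell cycle and survival, through targets such as cyclins D1 and E1 and BCL2. The miR-15a and miR-16-1 pair is a known tumour suppressor of B lymphocytes. miR-16 is also abundant in red blood cells and is often used as a reference in blood measurements.

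The mature sequences are shown because they define the family and set what the counts can separate. They are from RefSeq (GRCm38.p6, the same assembly as mm10), with all 7 loci matched, and the seed is in capitals.
miR-16: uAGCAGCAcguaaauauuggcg
miR-15a: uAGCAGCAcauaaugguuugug
miR-15b: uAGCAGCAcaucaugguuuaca
miR-195a: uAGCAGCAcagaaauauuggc
miR-322: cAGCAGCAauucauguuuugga
miR-497: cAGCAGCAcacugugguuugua
The seed AGCAGCA was the same in all 6, and the members differed in the bases that follow it. miR-15a and miR-15b differed at 4 of 22 bases, all beyond the seed. miR-195a differed from miR-16 at 2 of 21 bases, G10A and U11G, counted from 1 at the 5′ end with the miR-16 base first. Among RefSeq mature miRNAs, 4 others carry this seed (miR-195b, miR-6342, miR-6353 and miR-6419) and are not analysed here.

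The loci form 3 genomic pairs and a single X-linked member. miR-15a (chromosome 14, 61632077 to 61632096, minus strand, mm10) and miR-16-1 (61631936 to 61631957) lie in an intron of Dleu2, a long noncoding RNA gene. The lower coordinates of their windows are 141 bases apart. miR-15b (chromosome 3, 69009775 to 69009796, plus strand) and miR-16-2 (69009918 to 69009939) start 143 bases apart in an intron of Smc4, which encodes a condensin subunit that compacts chromosomes in mitosis. miR-497 (chromosome 11, 70234730 to 70234749, plus strand) and miR-195a (70235062 to 70235083) start 332 bases apart. GENCODE places neither inside another gene on their strand, and the miR-497 window overlaps Mir497b on the opposite strand. miR-322 (chromosome X, 53054306 to 53054327, minus strand), the mouse counterpart of human miR-424, lies near miR-503. The lower coordinates of these windows are 276 bases apart.

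The hairpins of miR-16-1 and miR-16-2 show why their reads could not be assigned to a pair. They are printed with the mature part in capitals (RefSeq, GRCm38.p6).
miR-16-1: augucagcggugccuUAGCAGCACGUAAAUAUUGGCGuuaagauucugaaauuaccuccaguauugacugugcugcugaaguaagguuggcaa
miR-16-2: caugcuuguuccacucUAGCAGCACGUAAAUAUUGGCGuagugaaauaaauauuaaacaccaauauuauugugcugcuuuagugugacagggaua
The unbroken match between the hairpins runs past the mature part by 0 bases on the 5′ side and 1 base on the 3′ side. The deposited counts of the 2 loci were nearly equal: miR-16-2 exceeded miR-16-1 by 1863 and 1420 reads in controls 1 and 2 and by 973 (cadmium 1) and 1063 (cadmium 2). That excess was 0.0451% to 0.0478% of the miR-16-2 count in the 4 libraries. The sources used here do not say what distinguishes these reads, and miR-16 is described below as 1 miRNA with the count of miR-16-2.

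Listed reads came to 43666624 (control 1), 30277884 (control 2), 17064897 (cadmium 1) and 18575659 (cadmium 2). Both control libraries were therefore deeper than both cadmium ones, and depth cannot be told apart from the group. All 7 loci were listed in all 4 libraries with identical counted windows, and all 7 passed the filter on low counts. The window covered the RefSeq mature miRNA fully for miR-15b, miR-16 and miR-322. It ended 2 bases short of the 3′ end for miR-15a and miR-497, and ran 1 base past it for miR-195a. Levels are given as CPM, counts divided by a library total that was adjusted with TMM factors, which assume that most loci do not change. Loci with shared reads each enter that total, so CPM is a relative level and not a share of reads.

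miR-16 was by far the most abundant member. Its level was 131542 and 134214 CPM in controls 1 and 2, against 127921 and 130842 CPM with cadmium (libraries 1 and 2). On that scale it lay behind only miR-486 and the locus that repeats the reads of miR-486, among 276 tested loci. miR-15a came next, at 2891 and 2710 CPM in controls and 3019 and 2739 CPM with cadmium. miR-15b stood at 1335 and 1538 CPM in controls and at 3006 and 3126 CPM with cadmium. In controls it was below miR-15a, whereas with cadmium the values of both miRNAs interleaved. miR-322 had 308 and 542.4 CPM in controls and 182 and 202 CPM with cadmium. The members of the chromosome 11 pair were rare: miR-195a had 37.1 and 28.0 CPM in controls and 67.6 and 68.5 CPM with cadmium. miR-497 had 23.5 and 18.6 CPM in controls and 16.1 and 15.4 CPM with cadmium. The plot of levels by library shows an order of miR-16, miR-15a, miR-15b, miR-322, miR-195a and miR-497 in controls, in which neighbours did not overlap. Windows differed in length by at most 2 bases, but sequences can also differ in how efficiently they enter a library.

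**Figure D1:**
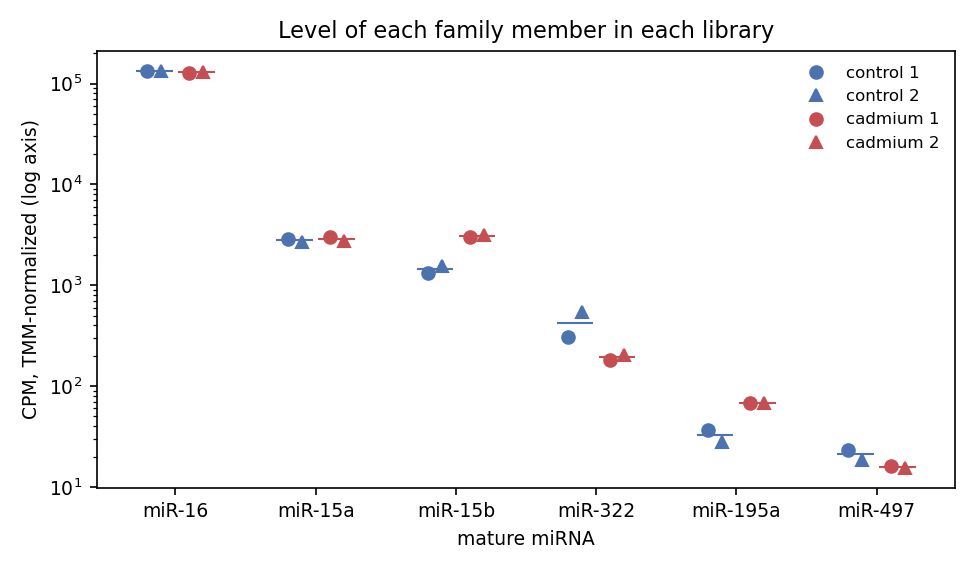
Level of the 6 mature miRNAs in each library, in TMM-normalized CPM on a log axis. Circles and triangles are libraries 1 and 2 of a group, and horizontal lines are group means. miR-15b and miR-195a lie higher and miR-322 lower in both cadmium libraries, while the miR-16 values lie between 127921 and 134214 CPM.

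The exposure comparison asks how the family differed with cadmium. In it, miR-15b and miR-195a were each about doubled, miR-322 was 2.21-fold lower, and miR-16, miR-15a and miR-497 did not pass the test. The test was edgeR's quasi-likelihood test with Benjamini-Hochberg adjustment over all 276 tested loci, at an adjusted p under 0.05. Of the 6 mature miRNAs, 2 rose, 1 fell and 3 were not called; by locus, 3 of 7 were called. Over all tested loci 14.5% were called, 7.97% as higher and 6.52% as lower. The median log2 fold change was 0.00066 over the 6 miRNAs and 0.08 over all tested loci. The groups did not overlap for 5 of the 6 miRNAs, all but miR-15a, beside 69.9% of all tested loci. Cadmium was higher without overlap for 2 of them (39.5% of all tested loci) and lower for 3 (30.4%). In whole blood, fewer cells of a type and less RNA per cell cannot be told apart.

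miR-15b rose from 1436 ± 143.8 to 3066 ± 84.8 CPM (SD, n = 2 each), 2.13-fold. Its log2 fold change was 1.09 ± 0.13 (SE; edgeR adjusted p = 0.00207), and both cadmium libraries lay above both controls. miR-16, which shares the Smc4 intron with miR-15b through its second locus, had 132878 ± 1889 CPM in controls and 129381 ± 2066 CPM with cadmium. On the log2 scale the difference was -0.04 ± 0.07 (edgeR adjusted p = 0.704), and the cadmium values lay below both controls. miR-15a, the partner of miR-16-1 in Dleu2, had 2801 ± 128 and 2879 ± 198 CPM, with overlapping groups and a difference of 0.04 ± 0.12 on the log2 scale (edgeR adjusted p = 0.805). The difference between miR-15b and miR-16 was tested by scaling each library to its miR-16 reads, so that the fold change is a ratio to miR-16. miR-15b then stood at 1.13 ± 0.11 (log2 scale; edgeR adjusted p = 0.0119) and miR-15a at 0.08 ± 0.11 (edgeR adjusted p = 0.632). With cadmium 1 or cadmium 2 left out, miR-15b stood at 1.12 and 1.07 on the log2 scale, near the full fit. It was not called in either fit, where the spread came from the control pair alone.

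Ratios of reads within 1 library need no scaling between libraries. Per 10000 miR-16 reads there were 101 and 115 miR-15b reads in controls 1 and 2, and 235 and 239 with cadmium. The log2 ratio of miR-15b to miR-16 was higher by 1.14 with cadmium, 2.20-fold. miR-15a gave 220 and 202 reads per 10000 miR-16 reads in controls and 236 and 209 with cadmium, so its groups overlapped. The ratio of miR-15b to miR-15a was 0.462 and 0.568 in controls and 0.996 and 1.14 with cadmium. These paralogs of different host genes were thus at nearly equal counts with cadmium. Scaled to miR-15a reads, a test added after the values were seen, miR-15b had a log2 ratio higher by 1.05 ± 0.16 (edgeR adjusted p = 0.0202). A 2 against 2 exact two-sided permutation test cannot give a p below 0.333, which is the value for each of these ratios except miR-15a to miR-16 (0.667).

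On chromosome 11 the neighbours miR-195a and miR-497 differed in how they compared with controls. miR-195a, known from cell cycle exit in heart muscle, rose from 32.5 ± 6.42 to 68.1 ± 0.696 CPM (SD, n = 2 each), 2.09-fold. Its log2 fold change was 1.06 ± 0.23 (SE; edgeR adjusted p = 0.0195). miR-497 went from 21.0 ± 3.41 CPM (controls) to 15.7 ± 0.464 CPM (cadmium), a difference of -0.42 ± 0.23 on the log2 scale that was not called (edgeR adjusted p = 0.302). In reads, miR-195a had 1165 and 628 in controls 1 and 2, and 1093 and 1165 with cadmium. miR-497 had 737 and 418 in controls and 260 and 262 with cadmium. miR-195a thus outnumbered miR-497 by 1.58 and 1.502 to 1 in controls and by 4.20 and 4.45 to 1 with cadmium. On the log2 scale that ratio was 0.62 ± 0.05 for controls and 2.11 ± 0.06 for cadmium (SD, n = 2 each), a 2.81-fold difference. The exact two-sided permutation p = 0.333 is the smallest possible here. With libraries scaled to miR-497 reads, a test added after the values were seen, the log2 ratio was higher by 1.49 ± 0.21 (edgeR adjusted p = 0.0176).

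The call of miR-195a was lost with libraries scaled to miR-16 reads (1.10, edgeR adjusted p = 0.0570). It was also lost without cadmium 1 (1.07) and without cadmium 2 (1.05), where the spread came from the control pair alone. miR-497 passed only without control 2 (-0.57), where the spread came from the cadmium pair alone. As listed, miR-195a and miR-16 differ at 3 of 22 bases, and miR-16 had 1893 to 4794 reads for every miR-195a read in the 4 libraries. The ratio of miR-195a to miR-16 was 2.17-fold higher with cadmium, at 2.82 and 2.09 per 10000 miR-16 reads in controls and 5.28 and 5.24 with cadmium. The sources used here do not say how many mismatches the counting allowed, and the part of miscounted miR-16 reads was not tested.

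miR-322, known from muscle and myeloid differentiation, fell from 425 ± 166 to 192 ± 13.9 CPM (SD, n = 2 each). On the log2 scale the difference was -1.15 ± 0.27 (SE; edgeR adjusted p = 0.0268). The controls lay far apart at 308 and 542.4 CPM, yet both were above the cadmium values of 182 and 202 CPM. Without control 2 the log2 fold change was -0.68 and without control 1 it was -1.496. In these fits the spread came from the cadmium pair alone, so they could not weigh the difference between the controls. The call of miR-322 was lost with total counts (-0.85, edgeR adjusted p = 0.0637) and with scaling to miR-16 (-1.10, edgeR adjusted p = 0.0908). It was also lost without cadmium 1 (-1.07) and without cadmium 2 (-1.22), where the spread came from the control pair alone.

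The other miRNAs of the X-linked cluster were not called. Of the 6 loci listed beside miR-322 (miR-503, miR-351, miR-542, miR-450a-1, miR-450a-2 and miR-450b), 0 rose and 0 fell by edgeR, beside 14.5% called over all tested loci. None had an unadjusted p under 0.05, against 79 of the 276 tested loci. DESeq2's Wald test also called 0, with no adjusted p for miR-503 and miR-450b. Their 5 distinct miRNAs had log2 fold changes from -0.79 to 0.66 with a median of -0.27. miR-503, the nearest neighbour and a relative with a near-identical seed, was barely detected, with 13 and 19 reads in controls and 14 and 18 with cadmium. Its log2 fold change was 0.66 ± 0.45 (edgeR adjusted p = 0.353). The counted windows of miR-503 and miR-450b had shifted ends between libraries, on the same hairpin arm. miR-351 had 35.3 and 29.7 CPM in controls and 23.6 and 27.5 CPM with cadmium, a difference of -0.35 ± 0.23 on the log2 scale (edgeR adjusted p = 0.353). miR-542 and both copies of miR-450a had overlapping groups. For miR-542 control 2 was 2.24-fold above control 1, and for miR-450a 2.31-fold. miR-322, at 1.76-fold, miR-450b, at 1.94-fold, and miR-503, at 2.05-fold, were also higher in control 2, while miR-351 was higher in control 1. The size of the neighbours' fold changes therefore depended on which control was used, and miR-542 alone changed direction. Without control 1 the log2 fold change was -0.74 for miR-542, -1.21 for miR-450b, 0.03 for miR-450a, 0.19 for miR-503 and -0.22 for miR-351. Without control 2 it was 0.42 for miR-542, -0.25 for miR-450b, 1.23 for miR-450a, 1.21 for miR-503 and -0.47 for miR-351. In these fits the spread came from the cadmium pair alone, so they could not weigh the difference between the controls.

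The make-up of the family's own reads differed between the groups. With each mature miRNA counted once, miR-16 made up 96.6% (control 1), 96.5% (control 2), 95.3% (cadmium 1) and 95.5% (cadmium 2) of family reads. The 95% Wilson interval in cadmium 1, the least deep library, was 95.28% to 95.34%; intervals cover counting error only. miR-15b took 1.04% ± 0.0889 of family reads in the control group and 2.26% ± 0.0297 in the cadmium group (SD, n = 2 each). miR-15a took 2.04% ± 0.124 and 2.12% ± 0.177, with overlapping groups. miR-322 took 0.308% ± 0.116 and 0.142% ± 0.00822, miR-195a 0.0237% ± 0.00502 and 0.0502% ± 0.000215, and miR-497 0.0153% ± 0.00271 and 0.0116% ± 0.000511. Except for miR-15a, no share overlapped between the groups, beside 69.9% of all tested loci without overlap in CPM. For each of these shares the exact two-sided permutation p = 0.333 was the smallest possible. As shares of all annotated reads, miR-497 overlapped between the groups and miR-15a did not.

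Without miR-16, the difference in make-up is easier to see. miR-15a held 62.9% and 56.0% of the remaining family reads in controls 1 and 2 but 48.0% and 44.5% with cadmium. miR-15b held 29.0% and 31.8% in controls and 47.8% and 50.8% with cadmium. miR-322 went the other way, with 6.71% and 11.2% in controls against 2.90% and 3.29% with cadmium. miR-195a and miR-497 together held under 2% in each library. The 95% Wilson interval of miR-15a in cadmium 1 was 47.7% to 48.3%. These shares sum to a whole, and the lower share of miR-15a stood beside CPM levels that overlapped between the groups.

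**Figure D2:**
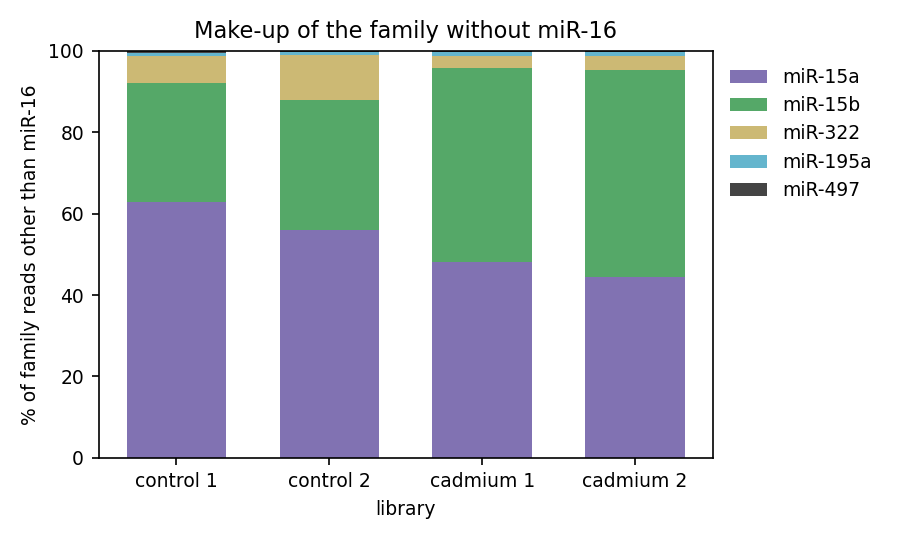
Make-up of the family reads other than miR-16 in each library, in percent of those reads, stacked by miRNA. The miR-15b part is 29.0% and 31.8% in controls and 47.8% and 50.8% with cadmium, while miR-15a and miR-322 take less; miR-195a and miR-497 are thin bands at the top.

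**Figure D3:**
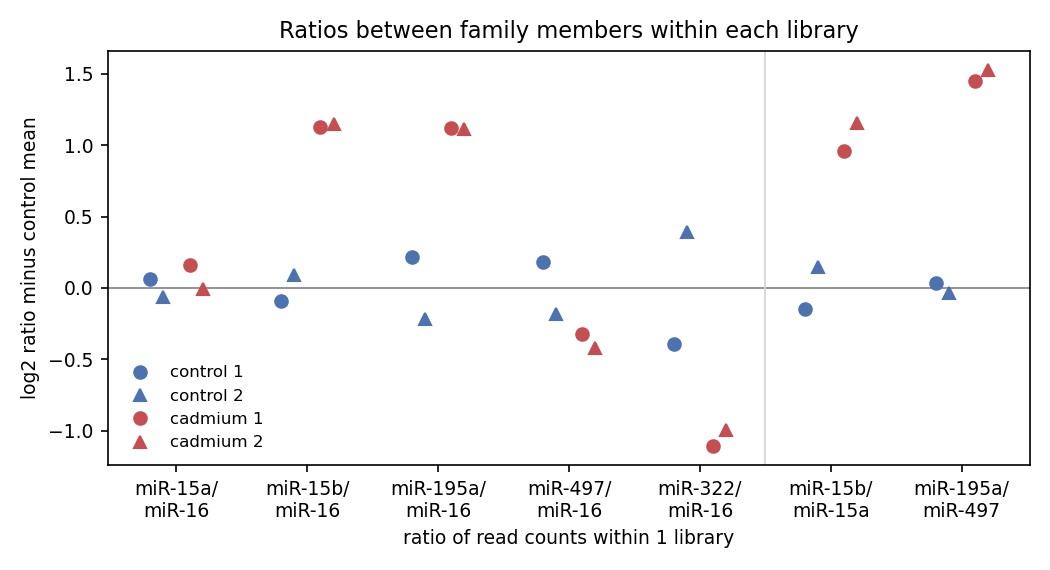
Ratios between members within 1 library, as log2 ratio minus the mean of the controls; points are libraries. The ratios of miR-15b and miR-195a to miR-16 lie higher by 1.14 and 1.12 with cadmium, that of miR-322 lower by 1.05, and that of miR-195a to miR-497 higher by 1.49. The ratio of miR-15a to miR-16 overlaps between groups.

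As a whole the family was not called on the TMM scale, but with total counts it was called as higher (0.32, edgeR adjusted p = 0.0132). Its summed level was 160695 ± 1974 CPM for controls against 153987 ± 1731 CPM for cadmium (SD, n = 2 each). That fit held the family as a single row without the miR-16-1 copy, so its library totals and TMM factors differed. These CPM are therefore on another scale than the member values above and cannot be set beside them. The sum, which is mostly miR-16, differed by -0.06 ± 0.07 on the log2 scale (SE; edgeR adjusted p = 0.548). As a share of all annotated reads with each miRNA counted once, the family held 20.3% ± 0.424 in controls and 24.4% ± 0.0673 with cadmium. miR-16 alone held 19.6% ± 0.394 and 23.3% ± 0.0303. Its share was thus higher in both cadmium libraries while its TMM level was lower in both, so the direction of miR-16 depended on the scaling. With total counts in place of TMM its log2 fold change was 0.26 (edgeR adjusted p = 0.0194), and with upper quartile factors 0.20 (edgeR adjusted p = 0.458).

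Scaling moved all loci together. The median log2 fold change of all tested loci was 0.30 higher with total counts and 0.24 higher with the upper quartile than with TMM. Calls were 22 higher and 18 lower with TMM, 21 and 27 by the size factors of DESeq2, 57 and 8 by total counts, 48 and 9 by the upper quartile, and 19 and 9 by scaling to miR-16. Relative to the median of all loci, miR-15b stood at 1.01, miR-195a at 0.98, miR-322 at -1.23, miR-497 at -0.50, miR-16 at -0.12 and miR-15a at -0.04. Over 15 alternative settings, miR-15b was 0.91 to 1.13 above that median, miR-195a 0.78 to 1.19 above it, and miR-322 0.78 to 1.58 below it. miR-15b was called in 13 of these 15, miR-195a in 11, miR-322 in 10 and miR-15a in 0. The 15 include 4 fits with a library left out, whose calls rest on the spread of the remaining pair.

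**Figure D4:**
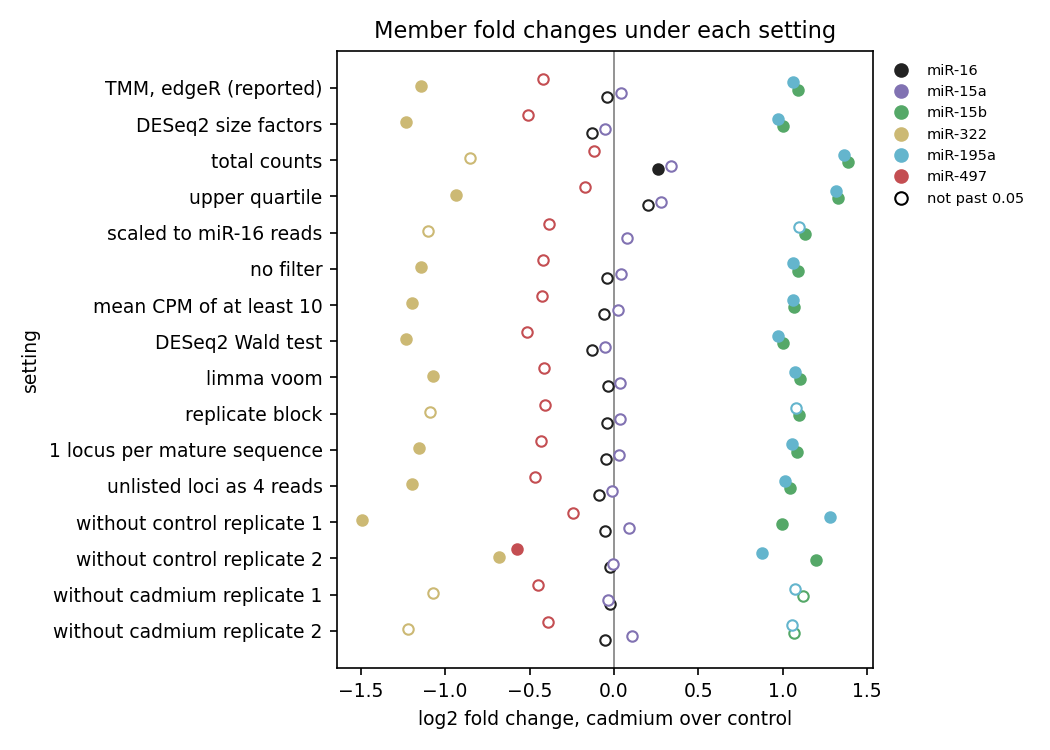
Log2 fold change (cadmium over control) of each member under the reported fit and 15 alternatives; filled points passed an adjusted p of 0.05 and open points did not. miR-15b and miR-195a stay right of 0 and miR-322 and miR-497 left of it in all rows, while miR-16 and miR-15a lie on either side.

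Of the relatives with an offset seed, miR-103 rose and miR-107 was not called. miR-103 and miR-107 belong to the wider miR-15 and miR-107 group, share the core of the seed shifted by 1 base, and are known from metabolic control. miR-103, with nearly equal reads at its 2 loci (values are of mmu-mir-103-2), had 3529 and 4263 CPM in controls and 6016 and 6060 CPM with cadmium. It rose by a log2 fold change of 0.63 ± 0.13 (SE; edgeR adjusted p = 0.0133). miR-107 had 665 and 638 CPM in controls and 1037 and 830 CPM with cadmium, at 0.52 ± 0.16, and was not called (edgeR adjusted p = 0.0710). It was called with total counts (edgeR adjusted p = 0.0168) and with the upper quartile (edgeR adjusted p = 0.00269). With control 1 or control 2 left out it was also called, but the spread then came from the cadmium pair alone. The call of miR-103 was lost with loci of at least 10 CPM only (0.60, edgeR adjusted p = 0.0603) and in 1 further fit, given with the limits of the processing. It was also lost without cadmium 1 (0.64) and without cadmium 2 (0.63), where the spread came from the control pair alone. Of the 3 miRNAs of this group, with miR-503, 1 was called, as higher, beside 7.97% of all tested loci called as higher. The plot of fold changes sets these relatives beside the family.

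**Figure D5:**
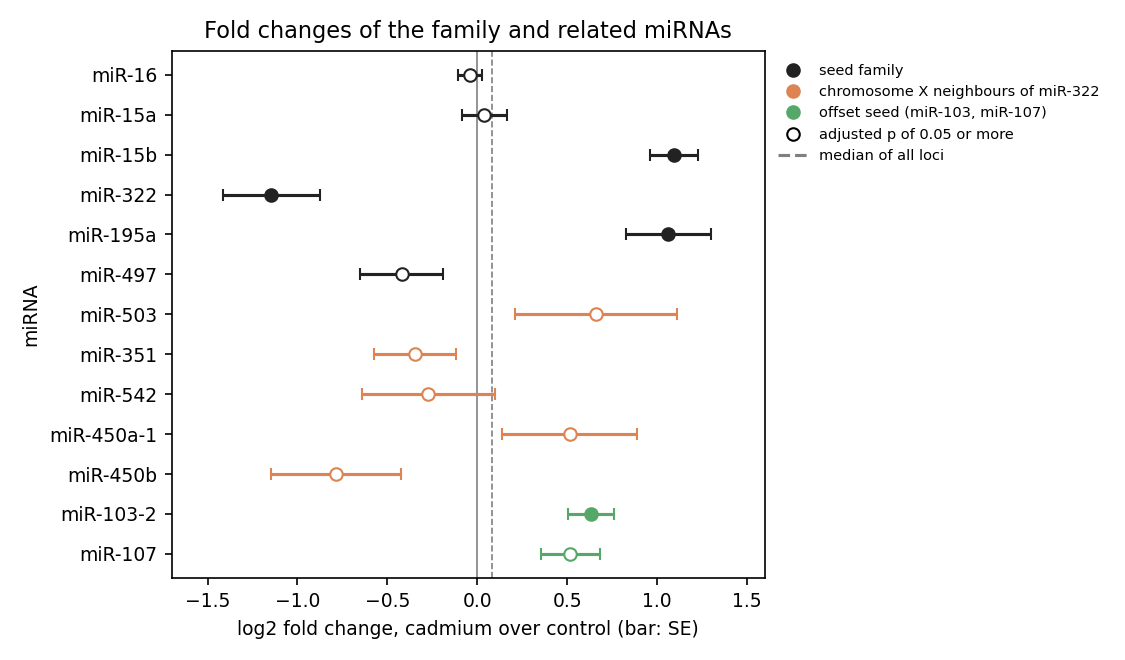
Log2 fold change (cadmium over control) with its standard error for the family, the chromosome X neighbours of miR-322 and miR-103 and miR-107. Filled points passed an edgeR adjusted p of 0.05 and the dashed line is the median of all tested loci, 0.08. miR-15b, miR-195a and miR-103 are filled to the right and miR-322 to the left.

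Outside the family, the miRNAs nearest to miR-15b in pattern over the 4 libraries were miR-24, miR-345 and miR-652. Likeness was the Euclidean distance of log2 CPM centred on each miRNA's mean, among 105 miRNAs of at least 10 CPM, and was 0.03, 0.18 and 0.24. Their log2 fold changes were 1.10, 1.13 and 1.06. Those nearest to miR-16 were miR-21a, miR-140 and miR-22, at distances of 0.07, 0.08 and 0.09. They had log2 fold changes of -0.03, 0.00 and -0.10. Distance and fold change came from the same 4 libraries, so similar fold changes follow from this choice and are no separate result.

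Of the blood cell markers tested, 3 miRNAs fell and 4 were not called, beside 6.52% of all tested loci called as lower. The red cell miRNAs miR-486 and miR-144 were both listed at high level, as in whole blood, and both fell, by 0.60 and 0.58 on the log2 scale (edgeR adjusted p = 0.00204 and 0.0359). Of 2 lymphocyte miRNAs, miR-181a fell by 0.81 (edgeR adjusted p = 0.0133) and miR-150 had -0.55 (edgeR adjusted p = 0.0741). miR-142 of leukocytes had -0.07, and miR-126a and miR-199a of platelets each had -0.15, with overlapping groups for all 3. Of other tissues, miR-205 of epithelium fell from 8.66 and 6.33 to 0.742 and 1.06 CPM, miR-133a of muscle had 0.83 (edgeR adjusted p = 0.237), and liver miR-122, not listed for control 2, had 16 reads in control 1 against 102 and 114 with cadmium. miR-451 of red cells and miR-223 of myeloid cells were not listed under these names in any library, so they could not be analysed. The part of cell composition in the differences of miR-15b, miR-195a and miR-322 was not tested.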

How the data were processed

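Total RNA of whole blood was extracted with the miRNeasy kit and made into Illumina small RNA libraries, per the labels' protocols. The authors deposited 1 list per library with counts of mature reads per locus, unnormalized, per the file headers. The submitters' processing notes name Bowtie 0.12.2, DESeq and mm10; the role of each is not given in the sources used here. The lowest listed count is 5, so an unlisted locus is not a measured 0. A row without a name, the total of cadmium 1, was left out. Star names at the same position were merged. The sequence column of control 2 was out of step with its rows and was not used.

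edgeR 4.0.16 (quasi-likelihood, TMM, filterByExpr, Benjamini-Hochberg, two-sided, 2 residual degrees of freedom) in R 4.3.3 was fitted to annotated loci that every library listed on 1 hairpin arm (277, of which 276 passed the filter). Standard errors are the fold change over the square root of F. Shares carry 95% Wilson intervals. Alternatives were other scalings, filters, DESeq2 1.42.0, limma voom 3.58.1, a replicate block, each library left out, copies merged and unlisted loci as 4 reads. The fit was tested on simulated data. Members, lists and naming rule (all members, 2 lists of relatives, the 3 nearest patterns to miR-15b and miR-16) were chosen with earlier results of these data known.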

Additional observations from a re-analysis of the deposited data

How the results depend on the processing

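The number of loci called moved from 40 to 65 with total counts, 26 with loci of at least 10 mean CPM and 8 to 122 when a library was left out; the 2 fits without a cadmium library gave the fewest calls. A lone library left in a group was assumed to vary like the other group, so calls in these fits rest on the spread of the remaining pair. The control pair was the less alike, with a log2 CPM correlation across loci of 0.992 against 0.997 in the cadmium pair. Directions of miR-15b, miR-195a, miR-322 and miR-497 held in all alternatives run. With a library left out, the log2 fold change ranged from 0.996 to 1.20 for miR-15b, 0.88 to 1.28 for miR-195a, -1.496 to -0.68 for miR-322, -0.57 to -0.24 for miR-497 and -0.0320 to 0.11 for miR-15a. Scaling to miR-16 gave 1.10 for miR-195a and -1.10 for miR-322, both no longer called, and total counts gave -0.85 for miR-322. miR-16 turned to 0.26 with total counts and 0.20 with the upper quartile, and the family sum to 0.32 (then called, edgeR adjusted p = 0.0132) and 0.15, and to 0.0111 among loci of at least 10 mean CPM. miR-15a turned to -0.0521 with DESeq2 size factors and with DESeq2, -0.00931 with unlisted loci as 4 reads and -0.0024 with identical windows only, an alternative added after seeing the data. The log2 ratio of miR-15a to miR-16 ranged from -0.00901 to 0.16 with a library left out, and its share difference from -0.0368 to 0.213 percentage points. Share differences (cadmium minus control, percentage points) scale with the denominator. With both miR-16 copies counted they were 0.63 for miR-15b, -0.61 for miR-16, 0.0136 for miR-195a and -0.0843 for miR-322. Over all annotated reads they were 0.339 for miR-15b, 3.67 for miR-16, 0.00744 for miR-195a, -0.0282 for miR-322 and -0.000268 for miR-497. Except where the denominator or number of samples changes by construction, the cause was not tested.

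The labels number libraries 1 and 2 in both groups but do not tie same-numbered ones together, and their deviations from the group means had a correlation of 0.00472 across loci. With the replicate block 19 loci were called, and miR-195a (1.08, edgeR adjusted p = 0.0630), miR-322 (-1.09, edgeR adjusted p = 0.0761) and miR-103 (0.64, edgeR adjusted p = 0.0630) were not.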
